A study of Mus musculus with 16 samples.

Results

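The genes described here are 27 transcripts of cholesterol synthesis and of its regulation by SREBP2, measured in mouse liver. They were chosen by symbol from the pathway and not by a cut on their values, though earlier results of these data were known. All 27 were among the 35502 genes of the deposited count table, and all 27 were among the 13379 genes with enough reads to be tested. Liver RNA of 16 individual mice was sequenced, 1 library per mouse, in 4 groups of 4. Mice with Cre are LERKO, a knockout of oestrogen receptor alpha (Esr1) restricted to the liver, and mice without Cre are the floxed controls (Con). Each genotype carries a stage label, mature (Mat) or immature (Imm), which refers to sexual maturity. Mice, livers and libraries are called mature or immature below by this label alone. The mature groups are Mat.Con and Mat.LERKO and the immature groups Imm.Con and Imm.LERKO. The sources used here do not give the promoter driving Cre, the deleted exon, or the strain, age and sex of the mice, nor whether the stage names the time of knockout or of collection.

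Liver is a main site of cholesterol synthesis in the body. Acetyl-CoA is condensed and phosphorylated into isoprenoid units, these are joined into squalene, and squalene is oxidised, closed into lanosterol and trimmed to cholesterol. SREBP2, encoded by Srebf2, is the transcription factor that governs the pathway. It is made as a membrane protein held in the endoplasmic reticulum with its escort Scap, and the Insig proteins retain the pair when sterols are plentiful. When sterols are scarce, the pair moves to the Golgi, where the proteases encoded by Mbtps1 and Mbtps2 release the active part, which enters the nucleus and binds sterol regulatory elements in promoters of the pathway. Neighbouring CCAAT boxes, bound by NF-Y, and GC boxes, bound by Sp1, are known to assist it. The nuclear protein was not measured here, and the level of its transcript does not report its cleavage.

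The promoters of the pathway are shown because the question asked of these genes is how far they move together. RefSeq windows on GRCm38.p6, from 250 bases before to 50 bases after the start, were matched for 23 of the 27 genes. Fdps, Fdft1, Sqle and Stard4 had no window. The letters TCACNCCA, a form of the sterol regulatory element, were searched on both strands and were found in 3 of the 23 genes, Hmgcs1, Msmo1 and Srebf2 (13.0%), against 4.97% of all genes with a window and 4.54% of the tested genes. CCAAT was found in 19 of the 23 (82.6%), against 41.1% of all genes and 43.0% of the tested genes. The GC box letters GGGCGG stood in 20 (87.0%), against 38.2% and 66.5%, and the E-box letters CACGTG in 5 (21.7%), against 8.09% and 11.7%. The median GC content was 61.3% in the windows of the 27 genes, 60.3% in those of tested genes and 52.7% in all windows. A match is a description of these letters and not a binding site, and the absence of a match says only that the letters are not in the window. The 3 windows that hold TCACNCCA lie at chr13:119690101-119690400 on the forward strand for Hmgcs1, chr15:82147019-82147318 on the forward strand for Srebf2 and chr8:64733529-64733828 on the reverse strand for Msmo1. The match begins 137 bases before the start in Hmgcs1, 162 in Srebf2 and 177 in Msmo1. Mbtps1, at chr8:119558712-119559011 on the reverse strand, is set beside them as 1 of the 4 members whose windows hold neither these letters nor CCAAT, the others being Acat2, Scap and Mbtps2. Capitals mark TCACNCCA and CCAAT on either strand.
Hmgcs1: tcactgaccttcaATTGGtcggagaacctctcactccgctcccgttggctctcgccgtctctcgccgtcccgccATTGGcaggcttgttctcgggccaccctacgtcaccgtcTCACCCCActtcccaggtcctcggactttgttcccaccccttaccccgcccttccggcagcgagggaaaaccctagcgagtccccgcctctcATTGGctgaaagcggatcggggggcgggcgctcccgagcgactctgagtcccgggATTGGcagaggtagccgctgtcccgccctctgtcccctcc
Srebf2: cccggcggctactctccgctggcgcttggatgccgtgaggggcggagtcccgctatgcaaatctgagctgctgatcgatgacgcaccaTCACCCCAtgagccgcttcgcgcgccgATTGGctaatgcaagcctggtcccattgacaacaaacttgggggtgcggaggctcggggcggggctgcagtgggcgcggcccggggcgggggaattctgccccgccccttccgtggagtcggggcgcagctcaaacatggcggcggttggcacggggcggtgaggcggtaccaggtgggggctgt
Msmo1: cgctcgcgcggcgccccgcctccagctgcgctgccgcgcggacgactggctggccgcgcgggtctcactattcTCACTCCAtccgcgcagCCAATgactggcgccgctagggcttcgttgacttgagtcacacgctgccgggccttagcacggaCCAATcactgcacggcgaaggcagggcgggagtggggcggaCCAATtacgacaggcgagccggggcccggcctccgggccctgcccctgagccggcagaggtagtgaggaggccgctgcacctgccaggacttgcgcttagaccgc
Mbtps1: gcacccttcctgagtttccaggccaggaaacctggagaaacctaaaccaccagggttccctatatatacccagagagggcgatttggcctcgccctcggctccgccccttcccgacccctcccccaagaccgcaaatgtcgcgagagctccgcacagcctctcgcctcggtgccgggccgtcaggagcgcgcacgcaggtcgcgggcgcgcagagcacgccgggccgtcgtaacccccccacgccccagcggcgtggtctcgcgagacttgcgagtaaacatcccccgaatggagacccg

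Levels are given as CPM, counts scaled to a common library total with TMM factors, which correct for the makeup of each library. Fold changes are on the log2 scale. Total counts ran from 18123974 to 23213905 per library. The defining hepatocyte markers were detected in every library, and their summed level ran from 121000 to 172000 CPM. Esr1 fell by 2.33 on the log2 scale (SE 0.19, adjusted p = 1.57e-05, edgeR) in mature and by 2.5 (SE 0.19, adjusted p = 6.55e-06, edgeR) in immature LERKO mice, and every LERKO library was below every control library of its stage. Some libraries stood apart from their group. Skeletal muscle markers (9 tested genes) summed to 729, 297 and 51.4 CPM in mature control libraries 1, 2 and 4 and to 144 CPM in immature LERKO library 4, with at most 1.77 CPM in each of the others. Of these markers Myh4 was at 0 in 12 libraries and Acta1 in 9. Acute phase genes (9) summed to 93900 CPM in mature LERKO library 4 and to between 8130 and 12200 CPM in the others. Stellate cell markers (8) summed to 261 to 354 CPM in mature controls, 62.3 to 250 in mature LERKO, 164 to 214 in immature controls and 156 to 321 in immature LERKO. These sums did not overlap between the mature groups, nor between the control groups, where 3.9% and 8.86% of single tested genes did not overlap. Endothelial markers (7) summed to 131 to 214, 66.8 to 160, 91.7 to 142 and 92.7 to 194 CPM in the same order of groups, and Kupffer cell markers (7) to 232 to 321, 199 to 363, 121 to 243 and 167 to 219 CPM. Mature LERKO library 4 was the lowest of the 16 for stellate and endothelial markers and the highest for Kupffer markers. Cholangiocyte markers (5 tested) summed to between 18.8 and 26.7 CPM in every library. Adipocyte markers (3 tested) reached 19 CPM in immature control library 4 and 22.7 CPM in immature LERKO library 2, with at most 11.6 CPM in the others. The part of these libraries and markers in the results was not tested. In bulk liver, fewer cells of a type and less RNA per cell cannot be told apart. P-values cover the spread between mice of a group.

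**Figure D1:**
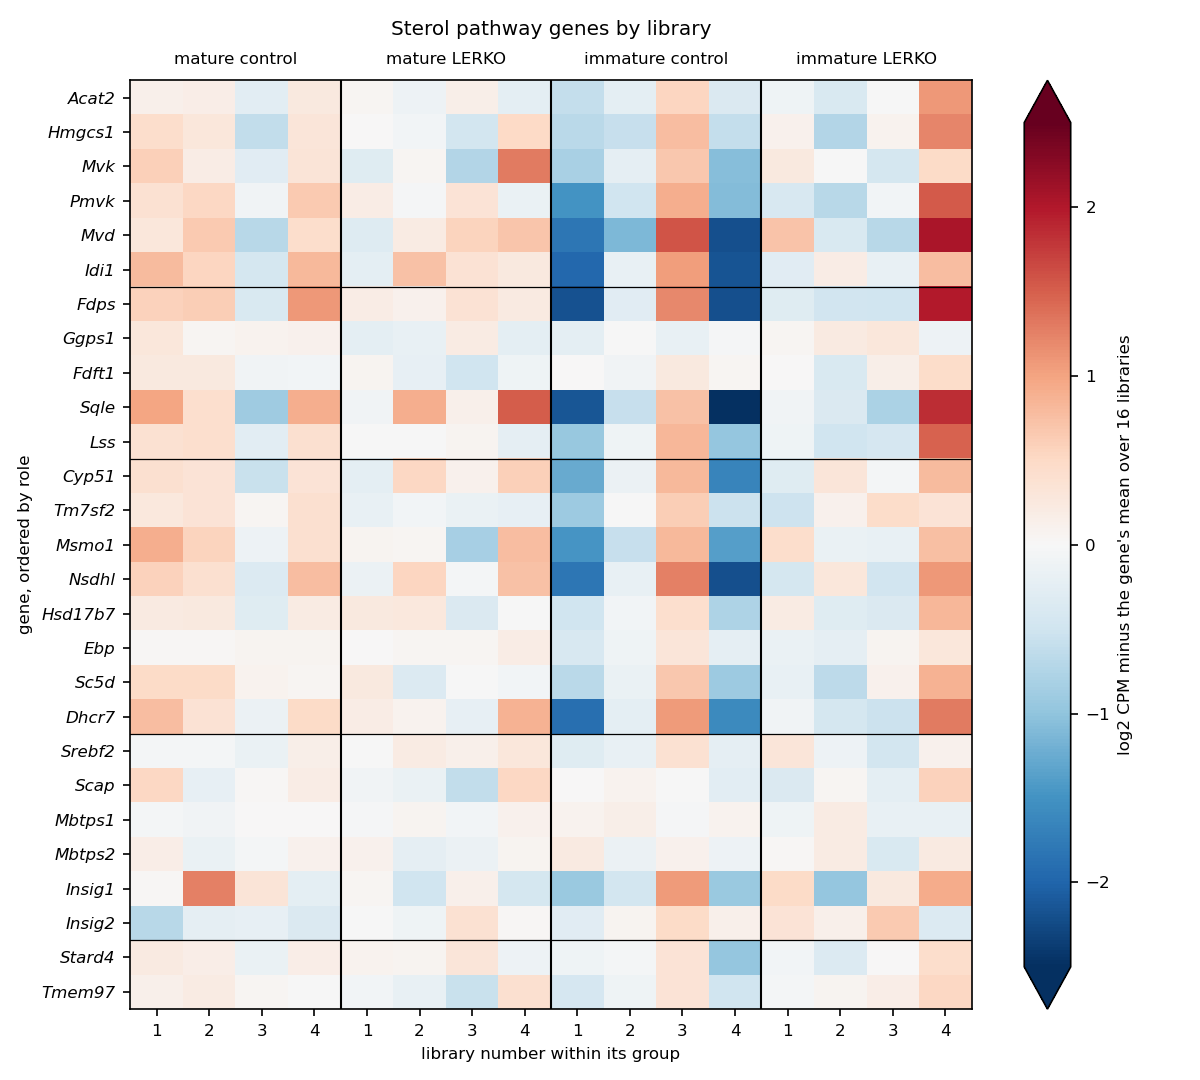
Heat map of log2 CPM minus each gene's mean over 16 libraries, with the 27 genes as rows in order of role and the libraries as columns by group; red is above and blue below the gene's mean. Immature control libraries 1 and 4 are blue in most enzymes (mean over the 27 genes -0.87 and -0.93), and immature control library 3 and immature LERKO library 4 are red (0.63 and 0.79).

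The 27 transcripts differed widely in level. Per kilobase of merged exons, Sc5d, a desaturase late in the pathway, and Insig1, the sterol-dependent retention factor, stood highest at 103 CPM per kilobase each. Ebp, a sterol isomerase, followed at 98, then Tmem97, a sterol-binding membrane protein also known as the sigma-2 receptor, at 44.5 and Fdps, the farnesyl diphosphate synthase, at 28.6. Mbtps2, the site-2 protease, was lowest at 0.678 CPM per kilobase, and Ggps1, which makes geranylgeranyl diphosphate on a branch away from sterols, was next at 1.81. The lowest count of any member in any library was 25 reads, for Mvd in immature control library 4. Counts of some members overlap those of neighbours. Fdps shares exons with Gm43738, Tm7sf2 with Vps51 and Mbtps2 with Yy2 on the same strand. Fdft1 shares 18.3% of its exon bases with Ctsb, Ggps1 5.44% with Arid4b and Cyp51 3.76% with Akap9, on opposite strands. The strand setting of the count is unknown, so reads in these shared stretches cannot be told apart. Acat2 has a near-identical paralogue, Acat3, between which reads may have been divided.

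Among the mevalonate steps, Hmgcs1, the HMG-CoA synthase (chromosome 13, 119690379 to 119708260, forward strand, GRCm38), had 141, 128, 68.6 and 129 CPM in mature controls and 105, 100, 75.6 and 148 CPM in mature LERKO. Its immature controls had 65.4, 70, 178 and 69.5 CPM and its immature LERKO libraries 113, 63.1, 112 and 242 CPM. The groups overlapped at both stages, and within immature controls library 3 stood far above the other three. Idi1, the isomerase that interconverts the isoprenoid units (chromosome 13, 8885501 to 8892451), had 25.2, 21.1, 10.8 and 25.7 CPM in mature controls and 12.2, 24.4, 18.9 and 17.3 CPM in mature LERKO. In immature mice it had 3.68, 12.9, 30.3 and 3.18 CPM in controls and 12, 16.7, 12.8 and 24.8 CPM in LERKO. The immature controls therefore held both its highest and its lowest levels of all 16 libraries. Acat2, the cytosolic thiolase, Mvk and Pmvk, the mevalonate kinases, and Mvd, the decarboxylase, spanned 3.22-fold, 5.23-fold, 8.25-fold and 20.1-fold between their lowest and highest library. The lowest library of each of these 4 was immature control 1 or 4. The highest was immature LERKO library 4 for Acat2, Pmvk and Mvd and mature LERKO library 4 for Mvk.

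Sqle, the squalene epoxidase (chromosome 15, 59315077 to 59331192, forward strand), had 37.8, 25.7, 10.2 and 35.8 CPM in mature controls and 18.1, 35.9, 20.9 and 54.7 CPM in mature LERKO. Immature controls had 4.25, 12.8, 31.9 and 3.29 CPM and immature LERKO 17.9, 14.9, 10.9 and 68.8 CPM. It varied 20.9-fold over the libraries, the widest range of the 27 genes, and its groups overlapped in both LERKO comparisons and in both stage comparisons. Fdps varied 18.1-fold, from 20.7 CPM in immature control library 4 to 374 CPM in immature LERKO library 4. Lss, the lanosterol synthase, varied 5.44-fold between the same 2 libraries. Fdft1, the squalene synthase, varied only 1.96-fold and Ggps1 1.47-fold.

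In the sterol steps the ranges followed the same libraries. Nsdhl, the sterol dehydrogenase, varied 11.1-fold, Dhcr7, the reductase of the closing step, 9.16-fold, Cyp51, the lanosterol demethylase, 5.58-fold and Msmo1, the methylsterol monooxygenase, 5.21-fold. Sc5d varied 3.4-fold, the ketoreductase Hsd17b7 3.02-fold, the sterol reductase Tm7sf2 2.89-fold and Ebp 1.63-fold. The lowest library was immature control 1 or 4 for all 8 of these genes, and the highest was immature control 3, immature LERKO 4 or, for Msmo1, mature control 1. Stard4, a cytosolic sterol carrier, and Tmem97, both known SREBP2 targets, varied 2.66-fold and 2.09-fold and were highest in immature LERKO library 4.

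The regulators differed in how far they varied. Over the 16 libraries Srebf2 varied 1.78-fold, Scap 2.29-fold, Insig2 2.55-fold and Insig1 4.69-fold. Srebf2 had 55.1, 54.8, 50.7 and 62.9 CPM in mature controls, 56.8, 65.6, 62.2 and 68.9 CPM in mature LERKO, 46.4, 49.9, 73.9 and 48.5 CPM in immature controls and 70.4, 52.4, 41.6 and 61.4 CPM in immature LERKO. Its 4 groups overlapped, with immature control library 3 again the highest of its group. Scap had 164, 98.6, 115 and 128 CPM in mature controls, 107, 101, 74.2 and 162 CPM in mature LERKO, 114, 121, 113 and 94.6 CPM in immature controls and 88.9, 118, 95.4 and 170 CPM in immature LERKO. The proteases Mbtps1 (site-1) and Mbtps2 varied 1.31-fold and 1.54-fold over all 16 libraries. Insig1 had 290, 677, 353 and 240 CPM in mature controls, 292, 199, 309 and 210 CPM in mature LERKO, 148, 208, 590 and 149 CPM in immature controls and 394, 144, 334 and 540 CPM in immature LERKO. Its highest library, mature control 2, was the highest of the 16 for none of the enzymes. Insig2, the second retention factor, had 42.5, 58.9, 59 and 53.5 CPM in mature controls, 68.4, 63.5, 89 and 69.5 CPM in mature LERKO, 56.1, 71.5, 96.1 and 74.8 CPM in immature controls and 86.3, 75.2, 109 and 54.2 CPM in immature LERKO. Every mature LERKO library was above every mature control for Insig2.

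**Figure D2:**
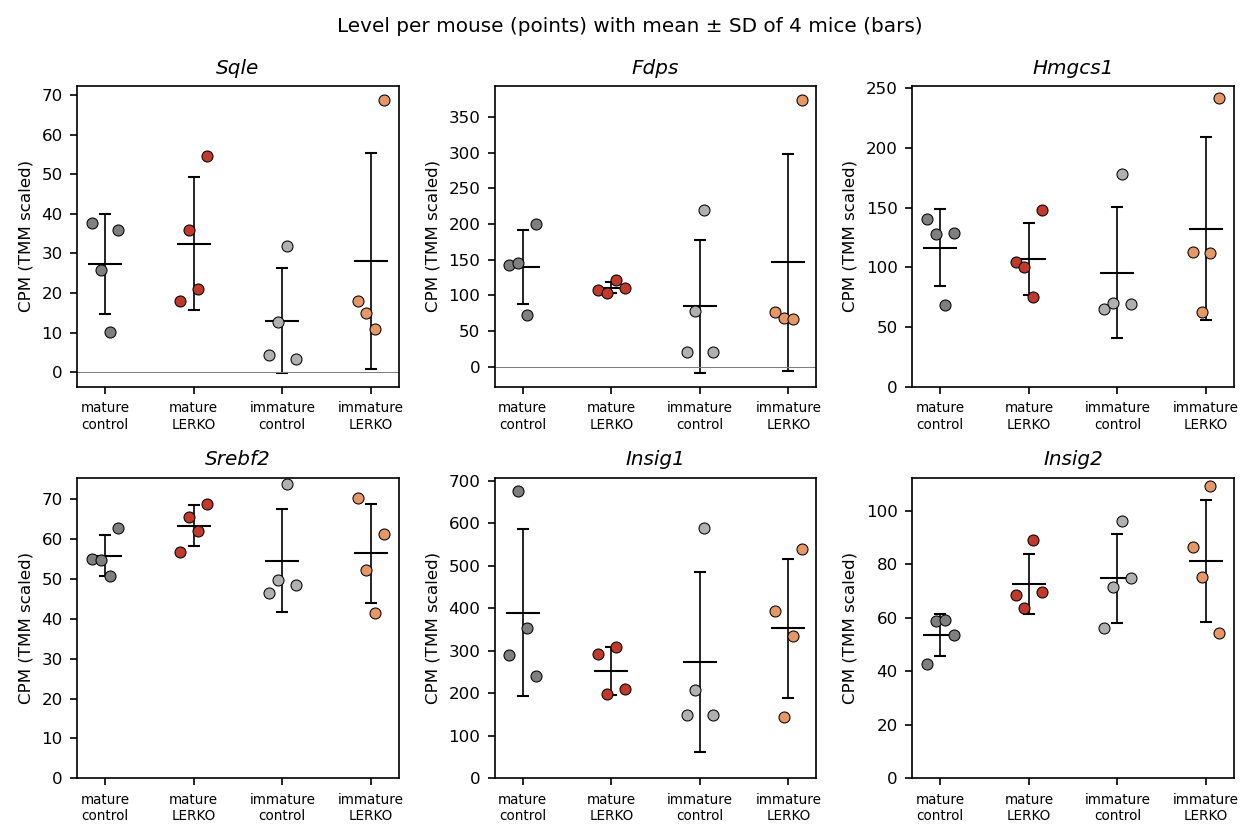
CPM (TMM scaled) of Sqle, Fdps, Hmgcs1, Srebf2, Insig1 and Insig2 on linear axes, 1 point per mouse in each of the 4 groups; horizontal bars are means and vertical bars SD of 4 mice. Immature LERKO library 4 stands alone at the top of its group for Sqle (68.8 CPM) and Fdps (374 CPM), and Insig2 separates mature controls (at most 59 CPM) from mature LERKO (at least 63.5 CPM).

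No gene of the pathway passed the test between LERKO and control livers of mature mice. Of the 27, 0 had a Benjamini-Hochberg adjusted p below 0.05 in edgeR's quasi-likelihood test (smallest 0.666), where 0.00747% of all tested genes, Esr1 alone, passed. DESeq2 and limma-voom also called 0 of the 27. An unadjusted p below 0.05 was found for 1 of the 27, Insig2, against 7.3% of all tested genes. Fold changes were negative for 19 and positive for 8, with a median of -0.12. Of all tested genes 48.2% were positive, with a median of -0.01. Insig2 averaged 53.5 ± 7.75 CPM in mature controls and 72.6 ± 11.3 CPM in mature LERKO (SD, n = 4 each). Its log2 fold change was 0.44 (SE 0.20, adjusted p = 0.666, edgeR). Tm7sf2 averaged 79.7 ± 8.19 and 59.1 ± 2.41 CPM (SD, n = 4 each), with a change of -0.43 (SE 0.25, adjusted p = 0.726, edgeR). These 2 were the members whose groups did not overlap, Insig2 higher and Tm7sf2 lower in LERKO, while 3.9% of all tested genes had groups that did not overlap.

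The enzymes of mature mice lay close to 0 with wide intervals. The median log2 fold change was -0.12 for the 6 mevalonate steps, -0.26 for the 5 prenyl and squalene steps and -0.1 for the 8 sterol steps. Hmgcs1 had -0.12 (95% interval -0.95 to 0.7), and Sqle 0.24 (-1.18 to 1.67), which spans from 0.44 to 3.17 times the control level. For 16 of the 27 genes the interval lay within a 2-fold change in either direction, so changes of that size are outside the intervals of those genes and not of the other 11. Insig1 had the lowest value of the 27, -0.63 (SE 0.46, adjusted p = 0.772, edgeR), which was -0.22 without mature control library 2. Sqle was -0.1 without mature LERKO library 4 and -0.03 without mature control library 3, and Hmgcs1 was 0.11 without the 3 libraries with the most muscle transcripts. Without those libraries the median of the 27 was 0, with Insig2 at 0.37 and Tm7sf2 at -0.4. Mature controls were then libraries 3 and 4 alone, and library 4 still held 51.4 CPM of muscle markers. The median ran from -0.23 without mature control library 3 to -0.03 without mature control library 1.

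In immature mice nearly every member was higher on average in LERKO, and again 0 of 27 passed (smallest adjusted p = 1, edgeR), against 0.00747% of all tested genes. DESeq2 and limma-voom called 0 as well. At an unadjusted p below 0.05 there were 0 of 27 in edgeR, against 2.76% of all tested genes, and 0 of 27 had groups that did not overlap, against 1.63%. Log2 fold changes were positive for 26 and negative for 1, Mbtps1 (-0.13, SE 0.09), with a median of 0.33, while 53.2% of all tested genes were positive with a median of 0.01. Since the 27 genes moved together across libraries, this count of directions is not 27 separate observations. Sqle had the highest value, 1.1 (SE 0.69, adjusted p = 1, edgeR), with means of 13.1 ± 13.3 CPM without Cre and 28.1 ± 27.3 CPM with Cre (SD, n = 4 each). Mvd followed at 0.87 (SE 0.72), Fdps at 0.79 (SE 0.68), Pmvk at 0.61 (SE 0.49) and Msmo1 at 0.59 (SE 0.45).

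This median turned on single mice. Without immature LERKO library 4 it was 0, and without immature control library 3 it was 0.69. Sqle was 0.16 without the former and 2.05 without the latter, and Hmgcs1 0.01 and 0.95. Scap, at 0.09, was -0.14 without immature LERKO library 4. With both libraries left out, a choice made after the levels were seen, the median was 0.42 and 0 of 27 passed. Immature LERKO library 4 also held the highest summed level of lipogenic genes, 42500 CPM against 3330 to 16400 CPM in the other libraries, and 144 CPM of muscle markers; the part of either in the result was not tested. The regulators were near 0 in this comparison, at 0.05 for Srebf2 (95% interval -0.3 to 0.39), 0.01 for Mbtps2 and 0.12 for Insig2, with Insig1 at 0.37 (-0.6 to 1.34). Insig1 was 0.09 without immature LERKO library 4 and 1.07 without immature control library 3.

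**Figure D3:**
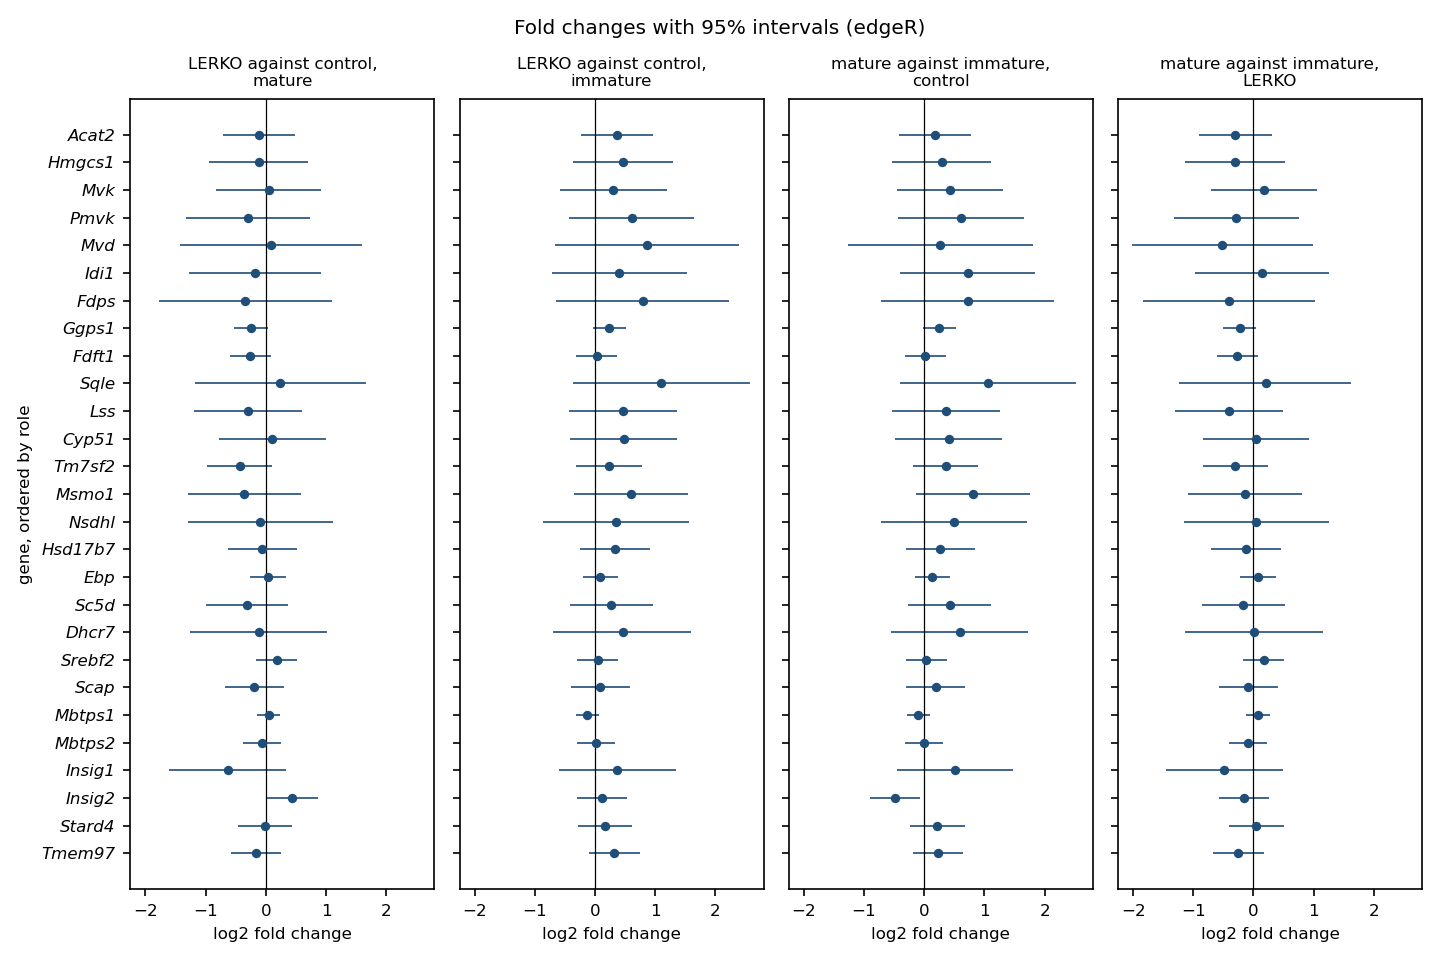
Log2 fold changes (points) with 95% intervals (lines) from edgeR for the 27 genes in the 4 comparisons, with 1 panel per comparison. The interval of Insig2 alone lies beside 0, on the positive side for mature LERKO (0.02 to 0.86) and on the negative side for mature against immature controls (-0.9 to -0.07), and neither passed after adjustment.

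Mature and immature livers were compared within each genotype. In controls 0 of 27 passed (smallest adjusted p = 0.431, edgeR), and 0% of all tested genes did. DESeq2 and limma-voom called 0 of the 27. An unadjusted p below 0.05 was found for 1 member, Insig2, against 9.84% of all tested genes. Positive values, higher in mature mice, were found for 24 of 27, against 53.1% of all tested genes, with a median of 0.29 against 0.02. Sqle had 1.06 (SE 0.69), Msmo1 0.81 (SE 0.45), Fdps 0.73 (SE 0.68) and Idi1 0.72 (SE 0.53), and Insig2 had -0.48 (SE 0.20, adjusted p = 0.431, edgeR). Mature controls enter this comparison and that of mature LERKO, so the Insig2 values of 0.44 and -0.48 share 4 libraries. Ggps1 was the only member without overlap, with 9.31 ± 0.74 CPM in the mature group against 7.82 ± 0.632 CPM (SD, n = 4 each), where 8.86% of all tested genes did not overlap. Without immature control library 3 the median of the 27 was 0.76, without immature control library 4 it was 0.16, and without the 3 libraries with the most muscle transcripts it was 0.14. Sqle was 2 and Idi1 1.64 without immature control library 3, and Idi1 was 0.4 without immature control library 4. Without the 3 libraries with the most muscle transcripts, which left mature control libraries 3 and 4, Sqle was 0.81 and Insig2 -0.42. Insig1, at 0.51 (SE 0.46), was 0.09 without mature control library 2 and 1.2 without immature control library 3. Srebf2, at 0.03 (SE 0.16), was below 0 without any one of mature control library 4 and immature control libraries 1, 2 and 4, with -0.04 the lowest.

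Between the stages of LERKO mice no member passed either. Of 27, 0 passed (smallest adjusted p = 0.955, edgeR; 0% of all tested genes), 0 with DESeq2 or limma-voom and 0 at an unadjusted p below 0.05, against 4.93% of all tested genes. Positive values were found for 10 of 27, against 50.4% of all tested genes, with a median of -0.14 against 0. No member was without overlap, against 1.52% of all tested genes. The median was 0.18 without immature LERKO library 4 and -0.2 without mature LERKO library 4. Sqle, at 0.2 (SE 0.67), was 1.15 and -0.16 without the same libraries, and Hmgcs1, at -0.31 (SE 0.39), was 0.16 without immature LERKO library 4.

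The test of whether the knockout effect differed between stages (mature minus immature) called 0 of 27 (smallest adjusted p = 0.768, edgeR; 0% of all tested genes), as did DESeq2 and limma-voom. Ggps1 alone had an unadjusted p below 0.05 in edgeR, against 6.35% of all tested genes. Its log2 difference was -0.48 (SE 0.18, adjusted p = 0.768), made of -0.24 in mature and 0.23 in immature mice. Differences were positive for 3 of 27, Srebf2, Mbtps1 and Insig2, against 48.7% of all tested genes, with a median of -0.48 against -0.01. That median was -0.07 without immature LERKO library 4, -1 without immature control library 3 and 0.03 without the 3 libraries with the most muscle transcripts. Sqle, at -0.86 (SE 0.96), was 0.09 without immature LERKO library 4 and 0.33 without the 3 libraries with the most muscle transcripts. Averaged over stages, the LERKO effect called 0 of 27 (against 0.00747% of all tested genes) and 0 at an unadjusted p below 0.05 (3.69%), with 19 of 27 positive (50.9%) and a median of 0.11. Averaged over genotypes, the stage effect called 0 of 27 (0% of all tested genes). At an unadjusted p below 0.05 it had 1, Insig2 at -0.32 (SE 0.14), against 7.92%, and 18 of 27 were positive (55.3%). DESeq2 and limma-voom called 0 of 27 in both averages.

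Mice of the same group differed widely in most of the enzymes. The within-group SD of log2 CPM had a median of 0.50 over the 27 genes, against 0.24 over all tested genes, and 21 of 27 lay above the latter. Mvd (1.12), Sqle (1.1), Fdps (1.07) and Nsdhl (0.93) varied most, each above at least 98.0% of tested genes. Mbtps1 (0.11), Ggps1 (0.17), Ebp (0.19) and Mbtps2 (0.2) varied least. Srebf2 itself, at 0.24, varied like the median gene. The lowest count in any library was 97 reads for Mvk, 25 for Mvd, 56 for Idi1, 58 for Sqle and 93 for Mbtps2, and at least 100 for every other member.

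Within groups the enzymes went up and down together. After each group's mean was removed, the median correlation over the 351 pairs of members was 0.62, with 81.8% of pairs positive, against a median of 0 over all pairs of tested genes. The 15 lipogenic genes had a median of 0.79 over their own pairs, and the 13 clock genes 0.21. All pairs share the same 16 libraries and their scaling, so these are descriptions. By role, the median was 0.78 among mevalonate steps, 0.79 among sterol steps, 0.45 among prenyl and squalene steps and 0.01 among SREBP2 and its processing proteins. Single libraries carried much of the movement. In immature control library 3, 25 of 27 members were above their group's mean, by 0.98 on average (log2), and in immature LERKO library 4, 24 of 27 by 0.68. In immature control libraries 1 and 4 the counts below the mean were 23 and 24, at -0.52 and -0.58, and in mature control library 3 24 were below, at -0.38. Deviations within a group sum to 0, so 1 high library places the others below. Mean deviations ran from -0.12 to 0.20 in mature LERKO libraries, with members going both ways.

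The joint movement was larger over immature than over mature libraries. The median pairwise correlation was 0.74 over the 8 immature libraries and 0.26 over the 8 mature ones, and the difference was not tested. Without immature control library 3 and immature LERKO library 4 it was 0.29 over the remaining libraries, and with any 1 library left out it ran from 0.45, without immature control library 3, to 0.66. Immature control libraries 1 and 4 were also lowest for lipogenic genes, with summed levels of 3330 and 4180 CPM, and immature control library 3 was the highest of its group at 15900 CPM.

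Sqle was taken as the reference for a test of this movement, since squalene epoxidase catalyses a committed step of the sterol branch. The relation of 26 members to Sqle over 16 libraries, with group means removed, was tested by permuting libraries within groups (two-sided, 100000 resamples). None of the 26 passed after Benjamini-Hochberg adjustment over 13378 genes (smallest adjusted p = 0.107 for Mvk), and 0% of all genes passed in either direction. The smallest p that 100000 resamples of this permutation test can give is 1e-05. A single gene at that p could not pass the adjustment, though several genes there together could. The smallest p seen was 3e-05, above that limit. The lack of calls does not show that relations are absent. An unadjusted p below 0.05 with a positive r was found for 19 of the 26, against 7.09% of all tested genes. The median Pearson r of the 26 was 0.75 and the median Spearman rho 0.67, against 0 and 0.01 for all tested genes. Immature control libraries 1 and 4 were the 2 farthest from the median of Sqle, and without them the median r was 0.68 and 15 of the 26 had an unadjusted p below 0.05. Without immature control library 3 and immature LERKO library 4 these were 0.53 and 11. Over the 8 mature libraries alone the median r was 0.51, with 7 below 0.05, and over the 8 immature ones 0.89, with 18.

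The 8 sterol steps had a median r of 0.87 with Sqle (median rho 0.78, and 0.8 for r without the 2 farthest libraries), and 7 of the 8 had an unadjusted p below 0.05. The 6 mevalonate steps had 0.85 (0.83 and 0.81). Dhcr7 had r = 0.94 (p = 0.00022, adjusted p = 0.168) and rho = 0.94 (p = 0.00017, adjusted p = 0.197) by the permutation test, with r = 0.93 without the 2 farthest libraries, and ranked first by r among 13378 genes. Nsdhl had r = 0.93 (p = 9e-05, adjusted p = 0.134) and rho = 0.94 (p = 0.00011, adjusted p = 0.164) by permutation, and 0.91 without the farthest. Cyp51 had r = 0.92 (p = 0.00036, adjusted p = 0.168) and rho = 0.93 (p = 0.00031, adjusted p = 0.207) by permutation, and 0.88 without them. These 3 held in both stages, with r of 0.85, 0.98 and 0.95 in mature and 0.98, 0.94 and 0.91 in immature libraries. All 6 mevalonate steps had an unadjusted p below 0.05, and Mvk had the smallest p (3e-05 by permutation, r = 0.85, rho = 0.89). Hmgcs1, with r = 0.84 (permutation p = 0.00209) and rho = 0.82, kept 0.86 without the farthest libraries and had 0.89 in mature and 0.82 in immature mice. Fdps and Lss had r of 0.91 and 0.87. Among the 8 sterol steps the exception was Tm7sf2, with r = 0.63 (permutation p = 0.0788) and 0.35 without the 2 farthest libraries.

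Some members had a high r with Sqle in immature libraries and a low one in mature libraries. Sc5d had r of -0.05 in mature and 0.9 in immature mice, Stard4 0.17 and 0.82, Pmvk 0.21 and 0.92, and Acat2 0.21 and 0.88, each over 8 libraries and with the difference not tested. Insig1, itself a known SREBP2 target, had -0.42 and 0.8, and 0.49 over all 16 (permutation p = 0.152, rho = 0.36). Its value over all 16 was 0.26 without the 2 farthest libraries.

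For 7 of the 26 the relation to Sqle did not reach an unadjusted p of 0.05, among them 4 of the 6 regulators. Ggps1 had r = -0.33 (permutation p = 0.226, rho = -0.18), Insig2 -0.21 (permutation p = 0.518, rho = -0.2), Mbtps1 -0.2 (permutation p = 0.537, rho = -0.12) and Mbtps2 0.34 (permutation p = 0.273, rho = 0.19). Fdft1, the next enzyme before Sqle, had 0.45 (permutation p = 0.106, rho = 0.37), and its counts share exons with Ctsb, which had 443 to 954% of its reads. Srebf2 was the regulator that followed Sqle most closely, with r = 0.72 (permutation p = 0.00814, adjusted p = 0.269) and rho = 0.8 (permutation p = 0.00034, adjusted p = 0.207). Without the farthest libraries r was 0.66, and it was 0.84 in mature and 0.71 in immature mice. The within-group SD of Srebf2 was 0.24, against 1.1 for Sqle, and Fdft1 (0.24), Ebp and Ggps1 were as low or lower. Scap had r = 0.6 (permutation p = 0.0115, adjusted p = 0.289) and rho = 0.52. Of the 4 genes whose windows hold neither TCACNCCA nor CCAAT, Acat2 (permutation p = 0.0136) and Scap had an unadjusted p below 0.05 with Sqle, and Mbtps1 and Mbtps2 did not.

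**Figure D4:**
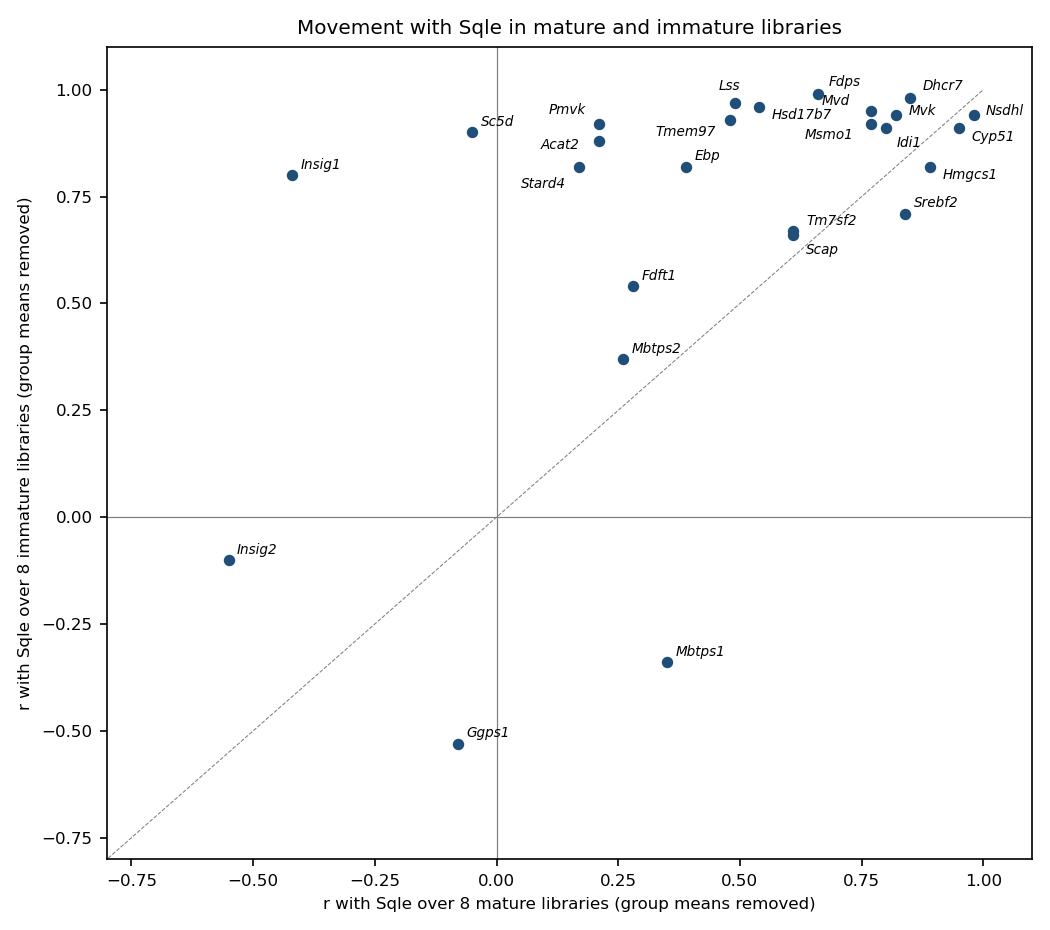
Pearson r of 26 genes with Sqle after removal of group means, over the 8 mature libraries (x axis) and the 8 immature libraries (y axis), with a dashed line where both are equal. Most genes lie near the top, with Sc5d and Insig1 to the left (mature r -0.05 and -0.42) and Insig2, Ggps1 and Mbtps1 below 0 on the immature axis.

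Related pathways were read from lists drawn up by function. The 15 lipogenic genes include Srebf1, which encodes the sister factor SREBP1c, and Mlxipl, which encodes ChREBP, beside targets of these factors. They had the highest median r with Sqle of the 6 lists, 0.7. Of the 15, 10 had a positive r and an unadjusted p below 0.05 (permutation test, smallest p = 0.00822, adjusted p = 0.269). Srebf1 had r = 0.38 (permutation p = 0.228) and Mlxipl -0.02 (permutation p = 0.949). The median r of the 15 was 0.91 in immature and -0.18 in mature libraries, with the difference not tested. Against control, 13 of the 15 had negative log2 fold changes in mature LERKO, with a median of -0.42, where 48.2% of all tested genes were positive. All 15 had positive ones in immature LERKO, against 53.2% of all tested genes, with a median of 0.86. Without immature LERKO library 4 that median was 0.02 and 8 of the 15 were positive. The lipogenic genes moved together within groups (median pairwise r 0.79), so these counts are not 15 separate observations. Scd1, the stearoyl-CoA desaturase, had 507, 2260, 6630 and 1430 CPM in immature controls and 4550, 1890, 4180 and 25700 CPM in immature LERKO. Its change of 1.75 (SE 0.76, adjusted p = 1, edgeR) was 0.39 without immature LERKO library 4 and 2.7 without immature control library 3. The isoprenoid branch (10 genes, median r 0.12), sterol sensing and enzyme degradation (10, -0.12), sterol transport, esterification and export (12 of 13 tested, -0.06), bile acid synthesis (8, 0.22) and the clock (13 of 14 tested, -0.08) had medians nearer 0. Of these, 1 gene of the isoprenoid branch and 1 of the clock had a positive r with an unadjusted p below 0.05. None of the genes of these 6 lists passed adjustment in any comparison in edgeR.

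The tested genes outside the pathway whose deviations were most like the mean of the 27 members were named by a rule, over 16 libraries and as a description. Gm43738 came first, with r = 0.97, but it shares 42.7% of its exon bases with Fdps on the same strand. Its counts were 79.5 to 94.5% of those of Fdps in every library. It also shares 54.8% with Rusc1, whose counts were 1.89 to 28.7% of its own. Whether reads were entered for both Gm43738 and Fdps was not tested, so its r cannot be told apart from that of Fdps. Rdh11, a retinal reductase of the endoplasmic reticulum, followed with r = 0.94 (rho 0.92), from 13.4 to 90.1 CPM. It kept 0.86 without the 2 libraries where the members' mean deviation from the group was largest, immature control 3 and immature LERKO 4. Echdc1, a cytosolic decarboxylase that removes ethylmalonyl-CoA, had 0.94 (0.75 without the 2 libraries), and the glutathione transferases Gstm3, Gstm2 and Gstm7 had 0.92, 0.9 and 0.89 (0.76, 0.59 and 0.6 without them). Ropn1l, Lacc1, Mtr, the methionine synthase, and Rab23 made up the 10, with r from 0.89 to 0.92. Echdc1 shares 75.9% of its exon bases with Rnf146 on the opposite strand, whose counts were 16.6 to 52.8% of those of Echdc1. Lacc1 shares 3.65% with Ccdc122, also on the opposite strand.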

How the data were processed

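RNA of 16 mouse livers was sequenced. The authors deposited a table of 1 count for each gene in each library, with no normalization visible in the values. A few deposited values, 10 in 2 predicted genes, were not whole, as in estimated counts, and were rounded. Per the labels' protocols, RNA was DNase-treated on columns and the mRNA libraries were stranded and paired-end. The submitters' processing notes name the build mm10 and the tools STAR, R 4.05 and limma. The sources used here give neither their roles nor the counting program, annotation, strand setting or treatment of shared reads.

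Genes passing filterByExpr of edgeR (at least 10 reads, total 15) were scaled with TMM (factors from 0.852 to 1.07). The test was the quasi-likelihood test of edgeR, in 1 model with a coefficient per group, with Benjamini-Hochberg adjustment over 13379 genes and a threshold of 0.05. Levels are CPM, and log2 CPM used a prior count of 2. Relations to Sqle used 100000 permutations within groups, and 20000 in the alternatives. Versions were R 4.3.3, edgeR 4.0.16, limma 3.58.1, DESeq2 1.42.0 and numpy 2.4.6. Gene positions came from GENCODE vM21 (GRCm38), which held 35465 of the 35502 identifiers. The scripts were tested on simulated data.

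The members and lists were chosen with earlier results of these data known. All 27 members are accounted for. Values in every library are given for Sqle, Hmgcs1, Idi1, Insig1, Insig2, Srebf2 and Scap. Of related lists, genes past the threshold were to be named, and otherwise the 2 with the highest mean level were available. Outside the pathway the 10 genes with the highest r to the members' mean deviation are named, among genes averaging 0 log2 CPM or more. Acta1, Pvalb and other genes named for overlap or marker checks, and the further members named with values, were chosen after their values were seen. Values of some genes of the pathway are not reported here. Alternatives were DESeq2, limma-voom, RLE factors, library size alone, no filter, 1 CPM in 4 libraries, the compared groups alone, a prior count of 0.5, each library left out, and libraries left out by muscle transcripts, by distance in Sqle or by sterol gene level. The last, and the fits to each stage alone, were added after the data were seen.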

Additional observations from a re-analysis of the deposited data

Results flagged for a closer look

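Of 108 sets of 4 libraries (27 genes in 4 groups), 15 held a library whose distance to the nearest other exceeded, as a share of the group's range, Dixon's 95% critical value for 4 samples. For normally distributed values chance flags about 1 in 20 sets. The check used CPM on the linear scale, so that rate need not hold here. The sets are not independent, since the same libraries recur.

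In immature LERKO library 4 the enzymes Fdps (374 CPM, others 67 to 76.6), Lss (119 CPM, others 30.2 to 39.5), Sqle (68.8 CPM, others 10.9 to 17.9), Dhcr7 (125 CPM, others 34.9 to 47.5), Pmvk (109 CPM, others 23.2 to 35.8) and Acat2 (86.4 CPM, others 31.4 to 40.4) stood above the rest of the group. In immature control library 3 the same was seen for Hmgcs1 (178 CPM, others 65.4 to 70), Mvd (20.6 CPM, others 1.42 to 3.1), Srebf2 (73.9 CPM, others 46.4 to 49.9) and Insig1 (590 CPM, others 148 to 208). Mature control library 3 stood below its group for Lss (35.8 CPM, others 55.7 to 57.3), Cyp51 (43.8 CPM, others 81.6 to 85.7) and Hsd17b7 (33.2 CPM, others 47.6 to 48.9). Ggps1 in mature LERKO library 3 (9.84 CPM, others 7.11 to 7.42) and Mbtps1 in immature LERKO library 2 (78.9 CPM, others 60.2 to 62.8) were the remaining sets.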

How the results depend on the processing

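No call changed: 0 of the 27 genes passed adjustment in any comparison under any alternative, and 0 of 26 relations to Sqle did. For the relations, the alternatives used 20000 resamples, and a single stage allows few distinct permutations. A single gene could not reach a p small enough to pass there, and only many genes at the smallest p together could. This count therefore does not show that relations are absent. The smallest adjusted p of a member among the alternatives other than single libraries left out was 0.121, for mature against immature controls without the 2 libraries with the highest sterol gene levels. DESeq2, limma-voom, other scaling and other filters kept the direction of every median. The fold changes of 8 genes (Sqle, Hmgcs1, Idi1, Insig1, Insig2, Srebf2, Scap and Ggps1) in 5 comparisons were recomputed under the alternatives, and 946 of these values, counted once per gene, comparison and setting, kept their direction while 30 were reversed. Scd1 and Tm7sf2 were recomputed with libraries left out alone, which was added with the data in view, and the other genes named were not.

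Without the 3 libraries with the most muscle transcripts, the median difference of effects was 0.03, with 0.33 for Sqle and 0.11 for Hmgcs1. This setting kept only mature control libraries 3 and 4 in their group, the latter with 51.4 CPM of muscle markers. Hmgcs1 was then 0.11 in mature LERKO and 0.15 between LERKO stages, and Scap -0.13 in immature LERKO and 0.13 between LERKO stages. Without the 2 libraries with the highest sterol gene levels, the median between control stages was 0.76, Scap in immature LERKO -0.12 and the Srebf2 difference 0. The median pairwise r was then 0.29 and 11 members had an unadjusted p below 0.05 with Sqle. The pairwise median was 0.53 without the 2 libraries farthest in Sqle, 0.26 in mature libraries alone, with 7 members below 0.05, and 0.74 in immature ones. The cause was not tested.

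With single libraries left out, the medians ran from -0.23 to -0.03 in mature LERKO, 0 to 0.69 in immature LERKO, 0.16 to 0.76 between control stages, -0.2 to 0.18 between LERKO stages and -1 to -0.07 for the difference. The ranges were -0.02 to 0.28 for the average LERKO effect and 0.02 to 0.22 for the average stage effect. Members below 0.05 with Sqle ran from 13 to 20 and the pairwise median from 0.45 to 0.66. For Sqle the ranges were -0.1 to 0.44, 0.16 to 2.05, 0.74 to 2, -0.16 to 1.15 and -1.8 to 0.09 in the same order of comparisons. For Hmgcs1 they were -0.31 to 0.02 in mature LERKO and -0.54 to 0.16 between LERKO stages, and for Idi1 -0.04 to 0.4 between LERKO stages. For Srebf2 they were -0.08 to 0.23 in immature LERKO, -0.04 to 0.2 between control stages and -0.04 to 0.27 for the difference. For Scap they were -0.14 to 0.2 in immature LERKO and -0.32 to 0.14 between LERKO stages. For Insig2 they were -0.06 to 0.27 in immature LERKO and -0.31 to 0.01 between LERKO stages.

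No paired analysis was possible because the labels give no replicate numbers that tie mice of different groups; numbers here were given in accession order. With 4 mice per group and a within-group SD near 1 on the log2 scale for Mvd, Sqle and Fdps, intervals of these genes in mature LERKO span more than a 2-fold change in both directions. The lowest count of any member in a library was 25 reads.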

Other observations

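Sterol export and storage genes gave values of their own in these comparisons, none past adjustment in edgeR. Of the 12 tested genes of their list, 9 had negative and 3 positive changes in mature LERKO, where 48.2% of all tested genes were positive. Soat2, the hepatocyte enzyme that esterifies cholesterol, had 36.7, 39.9, 38.2 and 39 CPM in mature controls and 35.3, 30.4, 22.5 and 33.1 CPM in mature LERKO. These groups did not overlap, and neither did those of 3.9% of all tested genes. Soat2 changed by -0.34 on the log2 scale (SE 0.12, adjusted p = 0.583, edgeR), and by -0.27 (SE 0.09, adjusted p = 0.999, edgeR) averaged over stages. Npc1, which moves cholesterol out of lysosomes, stood at 214 ± 34.5 CPM in mature controls and 165 ± 36.8 CPM in mature LERKO (SD, n = 4 each), a change of -0.37 on the log2 scale (SE 0.16, adjusted p = 0.665, edgeR). These and the clock genes below were chosen after their values were seen.

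Clock genes, which keep daily time in the cell, were also read. Arntl had 0.914, 1.26, 1.47 and 0.968 CPM in mature controls and 0.914, 3.29, 16.3 and 1.07 CPM in mature LERKO, so that mature LERKO library 3 alone stood far above the rest. Clock had 14.1, 12.8, 15.5 and 15.6 CPM in mature controls and 15.3, 23.9, 33.8 and 21.4 CPM in mature LERKO, a change of 0.7 on the log2 scale (SE 0.20, adjusted p = 0.481, edgeR). Of the 13 tested clock genes, 10 had negative and 3 positive changes in mature LERKO, with a median of -0.18. Of all tested genes 48.2% were positive there. Dbp (17.7 CPM), Nr1d1 (10.8 CPM) and Ciart (4.92 CPM) each had their lowest level of all libraries in mature LERKO library 3.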
